A study of Mus musculus with 12 samples.

Results

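The genes described here are 10 adhesion genes that carry leukocytes from blood into tissue: Icam1, Vcam1, Sele, Selp and Vwf on the vessel side, and Selplg, Itgam, Itgal, Itgb2 and Itga4 on the leukocyte side. They were chosen by name as a family, with earlier results of these data known, and matched by symbol to the Ensembl identifiers of the deposited tables. All 10 were found among the 35697 identifiers of the 2018 table and among the 55637 identifiers of the 2022 table.

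Leukocytes leave the blood in steps. Selectins on the vessel wall hold passing leukocytes loosely through sugar-coated ligands, so that the cells roll, and activated integrins on the leukocyte then bind immunoglobulin-like molecules on the endothelium, so that the cells stop and cross. In the uninjured brain the vessel side of this route is kept low, and the β2 integrins are also made by microglia, the resident macrophages of the brain.

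RNA of adult male wild-type C57BL/6J mice was sequenced in 2 batches, each with its own comparison. In the 2018 batch, 3 sham mice, which had the surgery without an impact, were set against 3 mice at 7 days after traumatic brain injury (TBI) by controlled cortical impact (CCI), in which a piston strikes the exposed cortex. The impactor tip was 3 mm wide and struck at 1.5 m/s to a depth of 1.5 mm with a dwell time of 100 ms. In the 2022 batch, 3 TBI mice were set against 3 TBI mice that received zileuton, an inhibitor of 5-lipoxygenase (5-LOX), by intraperitoneal injection in corn oil at 10 mg/kg per day. The study treats the 2022 TBI mice as vehicle controls, whereas their labels name only the injury. All 2022 mice are labelled as injured, and no sham library belongs to that batch, so each batch answers its own question. The source labels of the zileuton mice give 7, 8 and 9 days, and their library names give 7. Which of these days belongs to which column of the table cannot be told. The tissue is labelled brain and, in the study, the region around the contusion, so every library is a mixture of cell types. Nothing in the labels ties the libraries to litters or cages. The p-values measure the spread between these libraries, each taken as a single mouse.

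Library totals ran from 42929862 to 48684674 counts in 2018 and from 27845562 to 35453257 in 2022. Gfap, the intermediate filament of reactive astrocytes, rose from a mean of 188 CPM (counts scaled to a library of 1e+06) in sham to 2484 CPM in TBI mice, which checks the injury labels. Y-linked Ddx3y was present in all 12 libraries, at 2518 to 3008 counts in 2018 and 938 to 1240 in 2022. Xist, which female cells express, was at 856 to 1155 counts in every 2018 library and at 1.02 to 6.01 in 2022, although the mice are labelled male. Its 2018 range in sham mice (856 to 1047) overlapped that in TBI mice (913 to 1155), and its part in the results below was not tested. Whether each 2018 library holds RNA of a single mouse was not tested either. Even numbers made up 62.3% to 64.4% of the low counts (1 to 20) of each 2018 library, so 2 counts need not be 2 molecules. Exact intervals on counts take each count as a separate molecule. They cover counting error only, and in 2018 may be too narrow even for that.

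Promoter sequences are shown for 4 genes, the 3 called genes with a promoter entry (Icam1, Selp and Itgam) and Sele, which was not called, so that the sequences in front of genes with and without a call after injury can be read side by side. Each is the stretch of 250 bases before the RefSeq transcription start on GRCm38.p6, on the plus strand, 5′ to 3′. Entries were matched for 5 of the 10 genes, Itga4 being the fifth. Capitals mark matches to GGNNNTTCC on either strand, the core of sites for NF-κB, the factor through which inflammatory cytokines act on vessels, or to GAGGAAG, the purine-rich core bound by the myeloid factor PU.1.
Icam1, chr9:21015690-21015939: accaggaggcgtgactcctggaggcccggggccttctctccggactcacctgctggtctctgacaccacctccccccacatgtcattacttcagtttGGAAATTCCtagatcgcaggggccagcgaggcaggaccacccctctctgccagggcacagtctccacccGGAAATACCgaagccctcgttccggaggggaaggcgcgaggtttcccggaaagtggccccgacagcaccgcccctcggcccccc
Selp, chr1:164115014-164115263: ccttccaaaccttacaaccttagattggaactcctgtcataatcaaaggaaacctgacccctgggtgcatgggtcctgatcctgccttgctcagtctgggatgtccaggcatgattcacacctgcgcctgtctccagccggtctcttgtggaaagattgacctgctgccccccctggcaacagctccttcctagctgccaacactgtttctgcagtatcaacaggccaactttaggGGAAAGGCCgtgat
Sele, chr1:164047984-164048233: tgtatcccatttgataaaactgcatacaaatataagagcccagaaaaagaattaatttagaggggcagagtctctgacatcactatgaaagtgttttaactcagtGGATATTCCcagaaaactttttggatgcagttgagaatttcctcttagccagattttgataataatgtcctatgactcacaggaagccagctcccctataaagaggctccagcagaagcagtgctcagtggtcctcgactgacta
Itgam, chr7:128062390-128062639: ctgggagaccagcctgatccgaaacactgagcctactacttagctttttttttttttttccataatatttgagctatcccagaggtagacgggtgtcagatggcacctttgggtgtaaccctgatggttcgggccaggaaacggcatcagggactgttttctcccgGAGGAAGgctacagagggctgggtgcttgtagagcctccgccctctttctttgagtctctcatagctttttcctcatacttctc

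The Icam1 window held GGAAATTCC, a match on both strands, 153 to 145 bases before the start, and GGAAATACC, a match on the minus strand, at 84 to 76. The Sele window held GGATATTCC at 145 to 137 bases before its start and the Selp window GGAAAGGCC, on the minus strand, at 14 to 6. The Itgam window held GAGGAAG at 84 to 78 bases before its start. GGNNNTTCC occurred in 15.7% of 32851 promoter windows of this length and GAGGAAG in 10.6%. The full κB consensus, which 3.9% of the windows held, matched none of the 5 genes, and the Itga4 window held neither of the shorter patterns. The matches describe letters and not bound sites, and the pattern GGNNNTTCC was chosen after the sequences had been seen.

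The first comparison asked how CCI changed the expression of these genes at 7 days. After injury, 7 of the 10 genes were higher with an adjusted p under 0.05 and none was lower, against 16.8% of the 19536 tested genes that were higher and 11.2% that were lower. The endothelial ligand Icam1 (10.9-fold), the shared β2 integrin chain Itgb2 (9.65-fold) and P-selectin, Selp (9.97-fold), rose most, followed by Itgam (5.48-fold), Vwf (2.16-fold), Vcam1 (2.08-fold) and Selplg (1.74-fold). E-selectin, Sele, the integrin chain Itgal and the α4 integrin chain Itga4 did not pass the test. In 9 of the 10 genes every TBI library lay above every sham library, against 24.6% of all tested genes, the exception being Itga4. At least 2-fold rises that passed the test were seen in 6 of the 10 genes, against 8.73% of the tested genes. Each of these counts of higher genes includes Selp, which entered the test only through its TBI libraries. Adjusted p-values are from the quasi-likelihood test of edgeR with Benjamini-Hochberg adjustment over all tested genes, in 3 mice against 3. The median log2 fold change of all tested genes was 0.02.

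**Figure D1:**
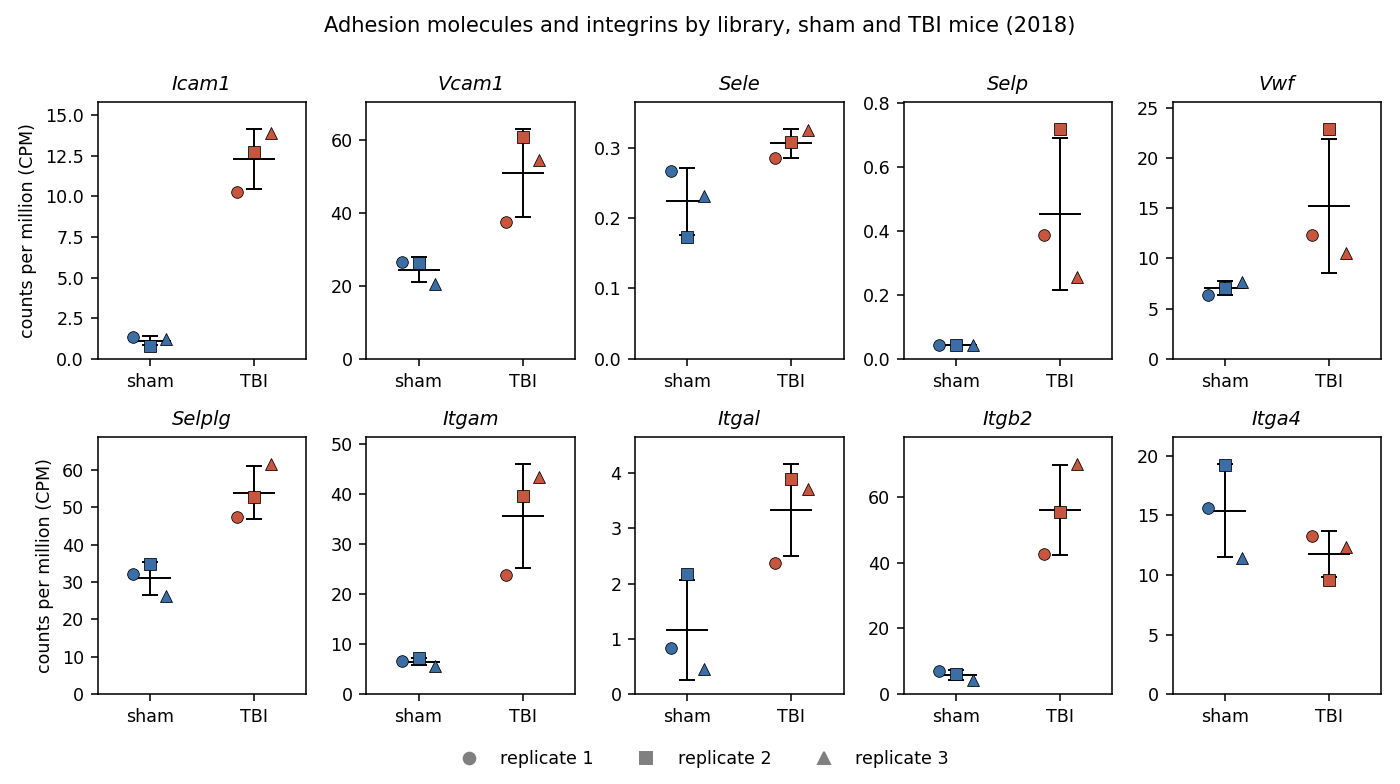
CPM (y axis, from 0) of the 10 genes in each library of the 2018 batch, sham in blue and TBI in red, with the mean and SD of 3 libraries in black. Each TBI point lies above every sham point in 9 panels, and only Itga4 shows overlapping groups.

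Icam1 (ENSMUSG00000037405, chromosome 9, 21015985 to 21028817 on GRCm38, as for all positions below) encodes the endothelial ligand of the β2 integrins, and microglia and astrocytes can also make it. It had 61, 38 and 57 counts in the sham libraries and 506, 619 and 598 in the TBI libraries. The groups lay far apart, the lowest TBI library holding more than 8 times the counts of the highest sham library. In CPM the mean rose from 1.13 ± 0.274 to 12.3 ± 1.84 (SD, n = 3), fitted as a rise of 3.45 ± 0.225 on the log2 scale (SE; adjusted p = 1.86e-05, edgeR), with a 95% interval of 7.65-fold to 15.5-fold. Its log2 fold change was higher than that of 98.6% of the tested genes. The antisense gene Gm47079 covers 11.7% of the exonic bases of Icam1 and was counted 27 to 33 times per 2018 library.

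Vcam1 (ENSMUSG00000027962, chromosome 3, 116109949 to 116129688) encodes the endothelial ligand of α4 integrin, the partner on which lymphocytes and monocytes settle. Sham libraries held 1198, 1211 and 971 counts and TBI libraries 1840, 2954 and 2347. All 3 TBI libraries were higher, TBI replicate 1 being the closest to sham. The mean rose from 24.4 ± 3.44 to 50.8 ± 12.04 CPM (SD, n = 3), fitted as a rise of 1.06 ± 0.178 on the log2 scale (SE; adjusted p = 0.00273, edgeR).

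The selectins were the scarcest of the 10 genes. Selp (ENSMUSG00000026580, chromosome 1, 164115264 to 164150026) encodes P-selectin, which endothelium and platelets store and bring to their surface on activation. It had 2 counts in each sham library and 19, 35 and 11 in the TBI libraries. Each TBI library thus exceeded sham, on few counts and with a wide spread among the injured mice. Selp entered the test only through its TBI libraries, and was not tested with counts divided by 2 or 10 counts required in every library. The ratio of pooled counts was 11.1 (95% exact interval 4.82 to 31.2), and the fitted log2 fold change was 3.32 ± 0.641 (SE; adjusted p = 0.00536, edgeR). The opposite-strand gene Gm16548, which covers 9.93% of the exonic bases of Selp, had 0 to 6 counts per 2018 library.

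Sele (ENSMUSG00000026582, chromosome 1, 164048234 to 164057677) encodes E-selectin, which endothelium makes anew when cytokines act on it. It had 12, 8 and 11 counts in sham and 14, 15 and 14 in TBI libraries. The groups did not overlap but stood only 2 counts apart at their nearest. The log2 fold change was 0.45 ± 0.442 (SE; adjusted p = 0.5, edgeR) and the ratio of pooled counts 1.42 (95% exact interval 0.872 to 2.32), so that a difference was not detectable at this depth. The neighbouring selectin genes Sele and Selp, which lie on the same stretch of chromosome 1, thus gave different calls, although the difference between their fold changes was not tested.

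Vwf (ENSMUSG00000001930, chromosome 6, 125546774 to 125686679) encodes von Willebrand factor, which endothelium stores together with P-selectin and which tethers platelets. Counts were 287, 327 and 366 in sham and 606, 1115 and 453 in TBI libraries. All TBI libraries were higher, and TBI replicate 2 was highest for both Vwf and Selp. The mean rose from 7.05 ± 0.666 to 15.2 ± 6.68 CPM (SD, n = 3), fitted as a rise of 1.11 ± 0.27 on the log2 scale (SE; adjusted p = 0.0153, edgeR). The call was lost without sham replicate 1 (adjusted p = 0.0649) and without sham replicate 2 (adjusted p = 0.0552) by the same edgeR test, while the log2 fold change stayed between 0.70 and 1.32 with any 1 library left out.

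On the leukocyte side, Itgb2 (ENSMUSG00000000290, chromosome 10, 77530252 to 77565708) encodes CD18, the β chain that Itgam, Itgal and Itgax need to reach the cell surface. Its counts were 314, 288 and 200 in sham and 2091, 2702 and 3010 in TBI libraries. The groups were separated by more than 6 times. The mean rose from 5.80 ± 1.43 to 55.9 ± 13.7 CPM (SD, n = 3), fitted as a rise of 3.27 ± 0.229 on the log2 scale (SE; adjusted p = 2.51e-05, edgeR), with a 95% interval of 6.73-fold to 13.8-fold.

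Itgam (ENSMUSG00000030786, chromosome 7, 128062640 to 128118491) encodes CD11b, the α chain of the macrophage and neutrophil integrin Mac-1. It had 296, 332 and 270 counts in sham and 1169, 1924 and 1865 in TBI libraries. The groups were separated, with TBI replicate 1 below the other TBI mice. The mean rose from 6.48 ± 0.752 to 35.5 ± 10.4 CPM (SD, n = 3), fitted as a rise of 2.45 ± 0.219 on the log2 scale (SE; adjusted p = 8.45e-05, edgeR). In the GENCODE M21 annotation the gene Gm49368, on the same strand, covers 68.7% of the exonic bases of Itgam. Gm49368 was counted 0 to 2 times per 2018 library, so reads that both genes could claim may be missing from the level of Itgam, depending on how the authors' counting treated them.

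Itgal (ENSMUSG00000030830, chromosome 7, 127296260 to 127335138) encodes CD11a, the α chain of the lymphocyte integrin LFA-1, which binds Icam1. Its counts were 38, 101 and 22 in sham and 117, 190 and 160 in TBI libraries. The groups did not overlap, although sham replicate 2 came within 16 counts of the lowest TBI library. The log2 fold change was 1.52 ± 0.497 (SE), and the adjusted p of 0.0503 (edgeR) did not pass the threshold. Without sham replicate 2 the log2 fold change was 2.32 and the adjusted p 0.00612, and Itgal passed in 10 of 16 alternative analyses.

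Selplg (ENSMUSG00000048163, chromosome 5, 113818536 to 113832644) encodes PSGL-1, the leukocyte protein that the selectins grip. Counts were 1446, 1609 and 1245 in sham and 2337, 2566 and 2648 in TBI libraries. The groups were separated, and the spread within each was small. The mean rose from 31.0 ± 4.39 to 53.9 ± 7.07 CPM (SD, n = 3), fitted as a rise of 0.80 ± 0.129 on the log2 scale (SE; adjusted p = 0.0023, edgeR).

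Itga4 (ENSMUSG00000027009, chromosome 2, 79255426 to 79333123) encodes the α4 chain of VLA-4, the receptor for Vcam1. It had 702, 888 and 543 counts in sham and 654, 467 and 531 in TBI libraries. The groups overlapped, with sham replicate 3 inside the TBI range. The log2 fold change was -0.39 ± 0.199 (SE; adjusted p = 0.18, edgeR), with a 95% interval of 0.557-fold to 1.04-fold, so that a rise of the size of any called gene lay outside it. Vcam1 and its receptor chain therefore gave different calls, while Icam1 and the shared chain of its receptors were both called. The opposite-strand gene Cerkl covers 8.04% of the exonic bases of Itga4 and had 45 to 76 counts per 2018 library.

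**Figure D2:**
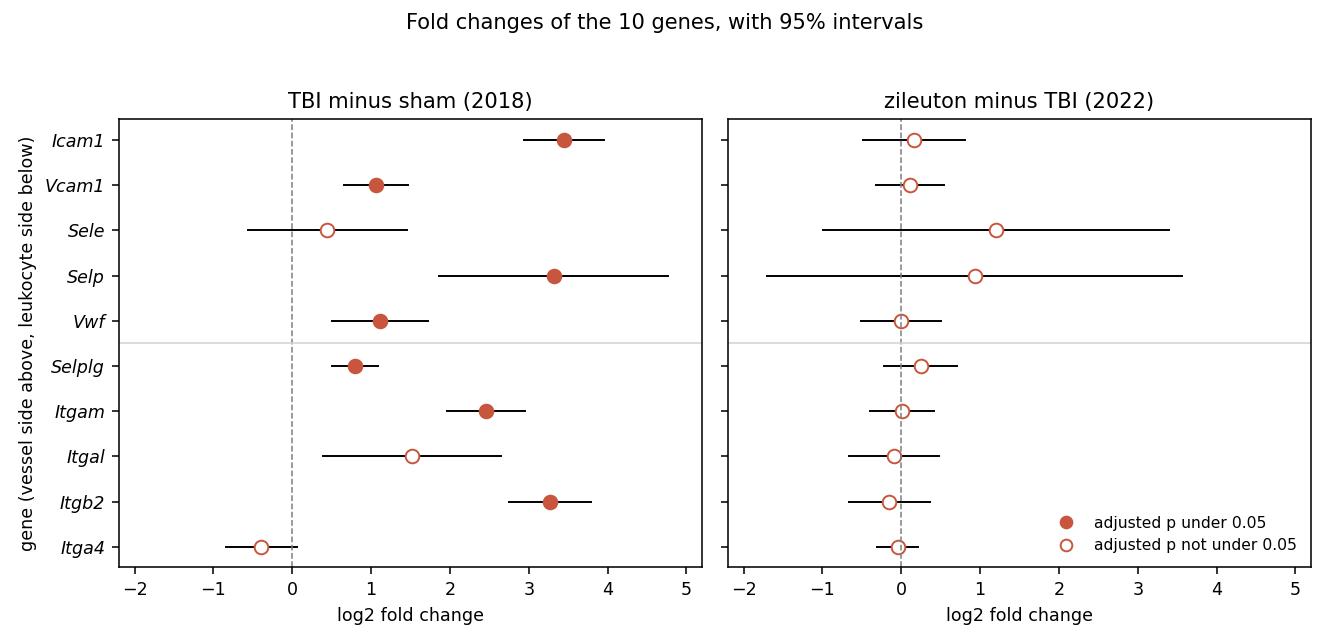
Log2 fold change (x axis) of the 10 genes with 95% intervals (bars) from edgeR, TBI minus sham at left and zileuton minus TBI at right. Filled points have an adjusted p under 0.05, which 7 genes reach after injury and 0 with zileuton, where the intervals of Sele and Selp are the widest.

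Levels per transcript length, in FPKM (read fragments scaled to gene length and library size), ordered the genes differently before and after injury. In sham mice Selplg was highest at 7.13 FPKM, followed by Vcam1 (2.70 FPKM), Itgb2 (1.86 FPKM), Itgam (1.27 FPKM) and Itga4 (1.08 FPKM). Vwf (0.431 FPKM), Icam1 (0.253 FPKM), Itgal (0.174 FPKM), Sele (0.0753 FPKM) and Selp (0.00962 FPKM) followed. The per-library ranges of Itgb2 and Itgam, Itgam and Itga4, Icam1 and Itgal, and Itgal and Sele overlapped, so the order within those pairs is not resolved. In TBI mice Itgb2 headed the list at 18.6 FPKM, its range overlapping that of Selplg (12.8 FPKM). Itgam (7.20 FPKM) and Vcam1 (5.84 FPKM) overlapped each other, and Icam1 (2.87 FPKM) lay clear of both its neighbours. Vwf (0.970 FPKM) overlapped Itga4 (0.853 FPKM), Itgal stood at 0.517 FPKM, and Sele (0.107 FPKM) and Selp (0.105 FPKM) overlapped at the bottom. Icam1 thus moved from below Vwf and Itga4 to above both.

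In bulk tissue a change in the number of cells of a type cannot be told apart from a change in RNA per cell. The cell type markers moved as well. The summed CPM of 12 endothelial markers was 148 to 190 in sham and 189 to 268 in TBI libraries, 7 of the 12 being called higher and 1, Mfsd2a, lower. The defining markers Cldn5, Cdh5 and Pecam1 rose 2.18-fold, 1.58-fold and 1.86-fold. All 10 markers of microglia and macrophages were called higher, their sum going from 460 to 550 CPM in sham to 2360 to 3630 CPM in TBI libraries.

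The rarer cell types had low marker sums. The sum of 10 neutrophil markers was 0.951 to 1.58 CPM in sham and 17.6 to 67.7 CPM in TBI libraries, with 6 of 7 tested markers called higher, while Ly6g, the defining marker, had 0 counts in sham and 0 to 6 in TBI libraries. All 6 monocyte markers were called higher, with sums of 28.2 to 31.2 CPM in sham and 62.5 to 91.7 CPM in TBI libraries. The neutrophil markers Mmp8 and Cxcr2 and the monocyte markers Ly6c2, Plac8 and Chil3, among others, entered the test only through their TBI libraries. Of 5 tested T cell markers 2 were called higher, and the sums of all 8 markers overlapped (9.08 to 22.7 CPM in sham, 5.39 to 31.2 CPM in TBI). Most of each sum was Cd4, at 7.52 to 21.3 CPM in sham and 3.37 to 27.3 CPM in TBI libraries, so the overlap of the sums mainly reflects that gene. Cd3e and Cd3g, which define T cells, had 0 to 2 and 0 to 4 counts in sham and 1 to 10 and 12 to 26 counts in TBI libraries. Cd8a, which marks only some T cells, had 0 counts in sham and 4 to 25 in TBI libraries.

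Platelets carry P-selectin and von Willebrand factor too, and their 9 markers summed to 6.06 to 7.54 CPM in sham and 8.72 to 28.3 CPM in TBI libraries. Of the 5 tested, Pf4, which macrophages also make, was called higher (1.85 to 13.9 CPM) and Gp9 lower, and Itga2b, which is confined to platelets and their precursors, had a log2 fold change of -0.17 (adjusted p = 0.594, edgeR). Of 6 pericyte markers 2 were called higher, and of 5 red cell markers 3 were called lower. Of 7 markers of fibroblasts and meninges 4 were called higher, of 5 neuron markers 3 were called lower, and all 5 astrocyte markers were called higher. The part of these cell types in the changes of the 10 genes was not tested.

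Each gene was also set against cell type markers, as a percentage of their summed CPM. Vessel genes were set against endothelial markers and leukocyte genes against microglia and macrophage markers. Which cells carried each gene in this tissue was not tested, so these ratios are not levels per cell. No test was made, since 3 libraries against 3 cannot give an exact two-sided permutation p below 0.1. Against 8 endothelial markers, Icam1 went from 0.984% to 1.70% in sham to 7.43% to 13.6% in TBI libraries, and Selp from 0.0416% to 0.0557% to 0.249% to 0.450%. Both ratios were separated between the groups, by a factor of 7.48 for Icam1 and 6.56 for Selp in the means. Vwf went from 7.61% to 8.47% in sham to 8.90% to 14.3% in TBI libraries, also without overlap. The ratios of Vcam1 (20.2% to 33.4% and 27.0% to 53.2%) and Sele (0.207% to 0.334% and 0.193% to 0.317%) overlapped.

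Against 7 microglia and macrophage markers the leukocyte genes parted. Itgb2 was higher in TBI (2.03% to 2.25%) than in sham libraries (1.19% to 1.72%). Selplg, although called higher in CPM, fell against these markers from 7.41% to 8.12% in sham to 1.85% to 2.27% in TBI libraries, and Itga4 from 3.23% to 4.48% to 0.370% to 0.634%. Itgam was also lower in every TBI library (1.13% to 1.604%) than in any sham library (1.607% to 1.68%), the nearest values almost touching. Itgal (0.131% to 0.510% in sham and 0.112% to 0.158% in TBI) overlapped. Between subunits, the FPKM ratio of Itgam to Itgb2 was 0.573, 0.700 and 0.820 in sham and 0.340, 0.433 and 0.376 in TBI libraries, and that of Itgal to Itgb2 was 0.0511 to 0.163 in sham and 0.0247 to 0.0327 in TBI libraries. Both subunit ratios were lower in every TBI library than in any sham library.

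**Figure D3:**
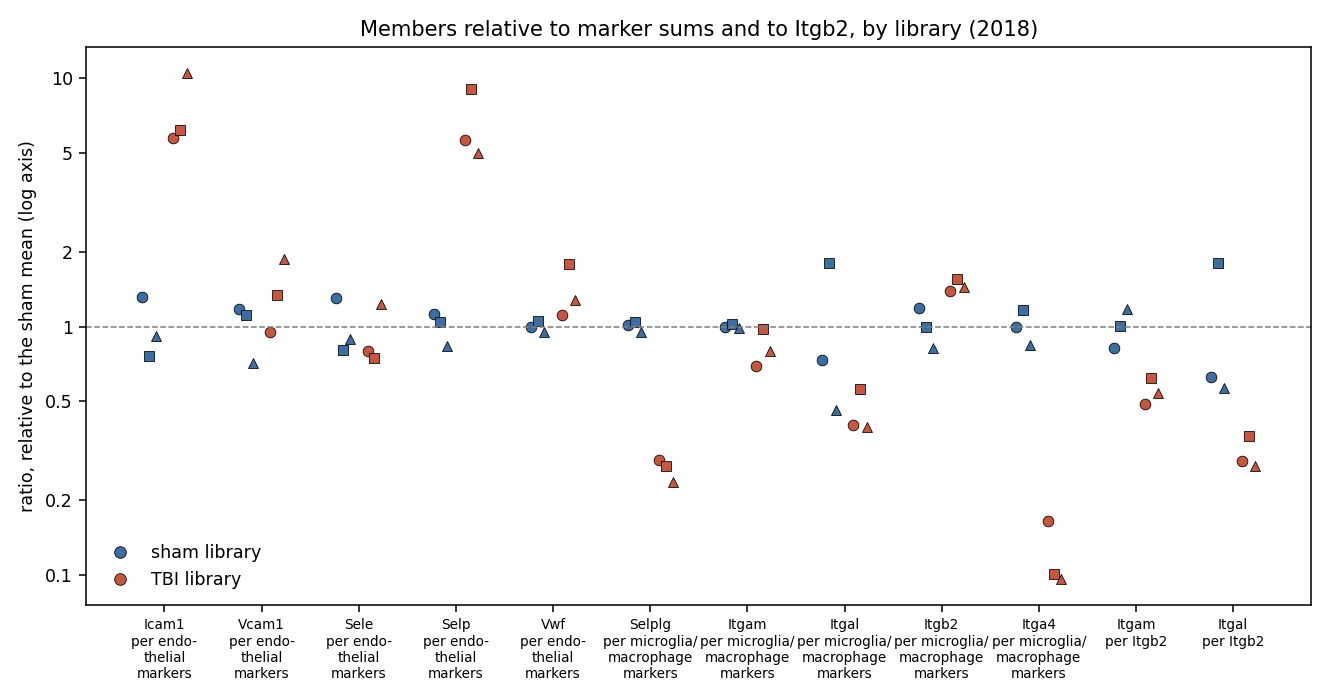
Ratio of each gene to its marker sum in CPM, or to Itgb2 in FPKM, in each 2018 library, divided by the sham mean (log y axis; 1 is the sham mean). The TBI points of Icam1, Selp, Vwf and Itgb2 lie above all sham points, and those of Selplg, Itga4, Itgam (narrowly) and both subunit ratios lie below them.

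Lists of related genes place the 10 among their relatives. These lists were chosen with earlier results of these data known, and their counts are descriptions. Genes with few sham counts, among them Itgax, Itga2, Glycam1, Fgr, Cytip and Fut4, needed their TBI libraries to enter the test. The counts of higher genes and the medians of the lists therefore depend partly on the filter. Of 26 integrin subunits, all tested and 4 of them among the 10 genes, 14 were called higher and 0 lower, with a median log2 fold change of 0.77. Itgax, the CD11c chain that also pairs with Itgb2, had the largest rise, from 8, 12 and 22 counts in sham to 215, 449 and 514 in TBI libraries (log2 fold change 4.805 ± 0.469, SE; adjusted p = 0.000139, edgeR). Itga2, a collagen receptor chain, rose by a log2 fold change of 2.92. The most abundant called chains were Itgb1, the common β1 partner, at 75.4 and 134 CPM in sham and TBI mice, and Itgb5 at 41.0 and 147 CPM. The α chains Itgax, Itgam, Itgal and Itgad, which all share Itgb2, had log2 fold changes of 4.805, 2.45, 1.52 and -1.06, Itgal and Itgad not passing the test.

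Among 16 other tested adhesion genes of vessels, 9 were called higher and 2 lower (median log2 fold change 0.60). Glycam1, a mucin-like selectin ligand of lymph node vessels, had 4, 2 and 4 counts in sham and 105, 153 and 146 in TBI libraries, a ratio of pooled counts of 41.2 (95% exact interval 22.2 to 86.7). F11r, a junctional adhesion molecule, and Fn1, the matrix protein fibronectin, rose by log2 fold changes of 1.59 and 1.52. Alcam, an abundant adhesion molecule of neurons and vessels, fell by 0.34 on the log2 scale, and Cd34, a vessel sialomucin, fell by 0.57. Cd99l2, the other abundant gene, stood at 101 CPM in sham and 95.8 CPM in TBI libraries and did not pass the test.

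Of 8 other tested leukocyte adhesion genes, 6 were called higher and 0 lower (median log2 fold change 3.67). Spn, Ly9 and Slamf7 entered the test only through their TBI libraries, so these counts and the median are not independent of the filter. Cd48, a surface receptor of many blood cells, had 34, 22 and 23 counts in sham and 473, 401 and 663 in TBI libraries (log2 fold change 4.27 ± 0.315, SE; adjusted p = 3.25e-05, edgeR). Ly9 and Slamf7, receptors by which immune cells bind each other, went from 6 to 8 and 0 to 5 counts in sham to 651 to 855 and 75 to 156 in TBI libraries. The abundant Sirpa and Cd47, a receptor of myeloid cells and its widespread ligand, did not pass the test (log2 fold changes of 0.10 and -0.17).

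Of 24 tested genes that switch integrins on or link them to the cytoskeleton, 16 were called higher and 1 lower (median log2 fold change 0.94). The kinase Fgr rose from 0 to 6 counts in sham to 115 to 175 in TBI libraries, the regulator Cytip rose by a log2 fold change of 4.10, and the leukocyte GTPase Rac2 rose by 3.77. The kindlin of blood cells, Fermt3, rose 5.68-fold and talin 1, Tln1, 2.01-fold, whereas the T cell adaptor Skap1 fell by 1.27 on the log2 scale. The abundant Tln2 and Coro1a did not pass the test (log2 fold changes of -0.15 and 0.03). Of 12 tested genes for the sugars of selectin ligands, 6 were called higher and 1 lower (median log2 fold change 0.56). The fucosyltransferase Fut4 (log2 fold change 2.66), the branching enzyme Gcnt1 (2.45) and the galactosyltransferase B4galt1 (1.80) rose most, the abundant sulfotransferase Chst2 rose by 0.76, and Fut9, the fucosyltransferase of neurons, fell by 0.70.

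**Figure D4:**
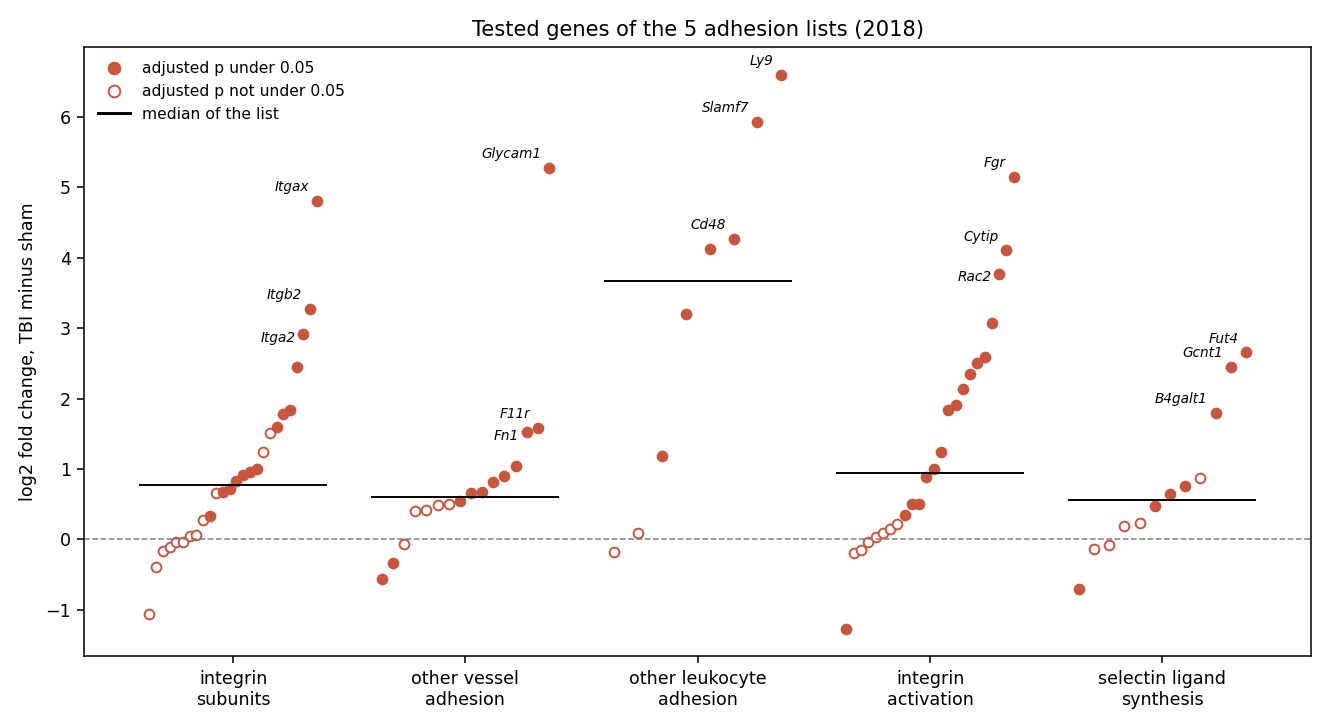
Log2 fold change, TBI minus sham (y axis), of each tested gene in 5 lists, sorted within a list, filled where the adjusted p is under 0.05, with the list's median as a black line. The 3 largest values of each list are named, from Ly9 at 6.60 to B4galt1 at 1.80 and Fn1 at 1.52.

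The calls for Icam1, Vcam1, Selplg, Itgam and Itgb2 were kept in all 18 alternative analyses, leaving out each library included. The number of members called higher ranged from 5 to 8, and Selp lost its call in 1 of the 14 analyses that tested it, limma without a filter.

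The second comparison asked whether zileuton changed these genes in injured mice. None of the 10 genes passed the edgeR test, whose smallest adjusted p over all genes was 0.185, and 0% of the 17363 tested genes did. None of the 10 had an unadjusted p under 0.05 either, against 6.83% of all tested genes, and in none did the groups separate, against 13.6% of all tested genes. DESeq2 called 28 genes and limma called 4 or 5, and 0 without a filter, none of them among the 10. The 95% intervals of the fold changes show what remains possible, and they were narrow for the abundant genes and wide for the selectins.

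**Figure D5:**
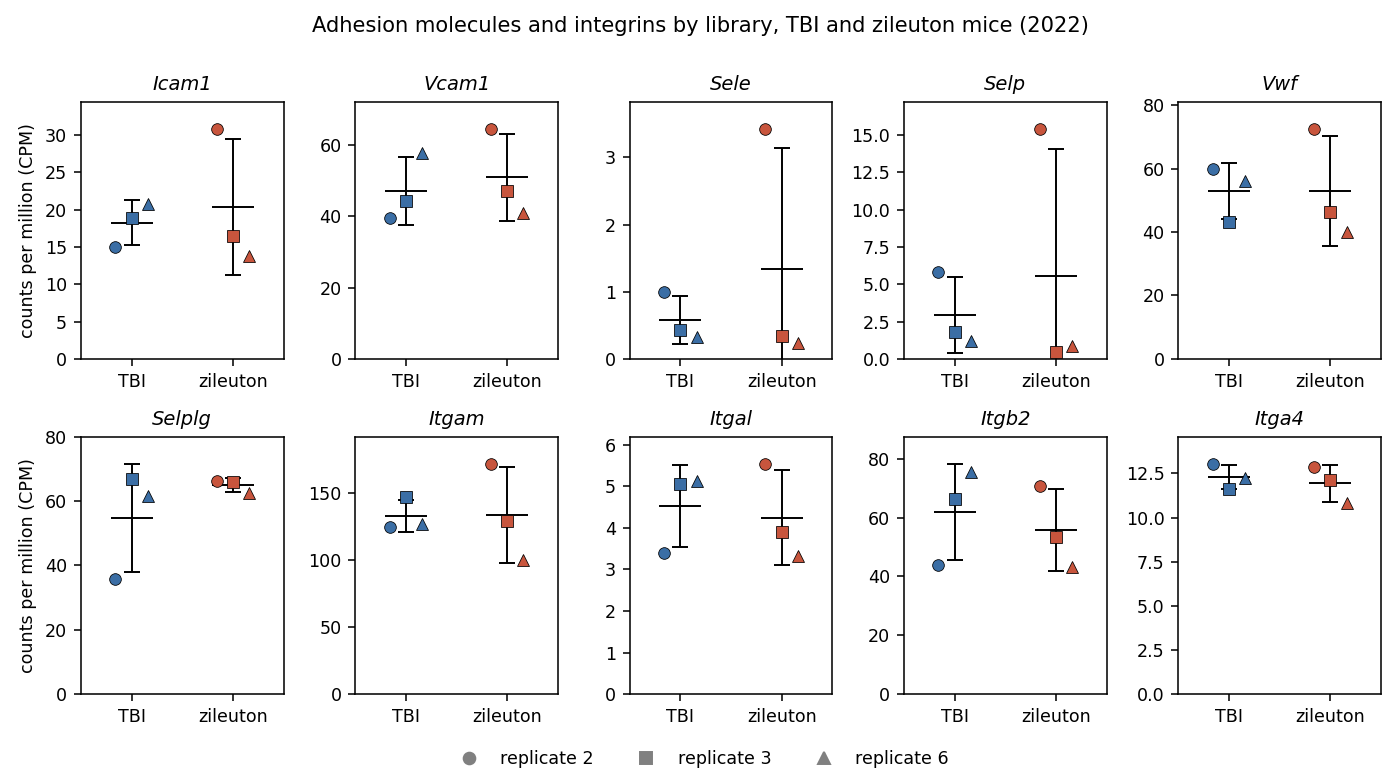
CPM (y axis, from 0) of the 10 genes in each library of the 2022 batch, TBI in blue and zileuton in red, with the mean and SD of 3 libraries in black (bars stop at 0). The groups overlap in every panel, and zileuton replicate 2 is the highest library for all 5 vessel genes.

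On the vessel side, Icam1 had 435, 662 and 583 estimated counts in TBI replicates 2, 3 and 6 and 935, 523 and 396 in zileuton replicates 2, 3 and 6. The highest and the lowest of the 6 libraries were both zileuton libraries. The log2 fold change was 0.16 ± 0.283 (SE; adjusted p = 0.907, edgeR), with a 95% interval of 0.712-fold to 1.75-fold.

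Vcam1 had 1150, 1545 and 1619 estimated counts in TBI and 1957, 1501 and 1175 in zileuton libraries. Only zileuton replicate 2 lay above the TBI range, and the other zileuton libraries lay within it. Its interval ran from 0.798-fold to 1.46-fold. Vwf had 1744, 1504 and 1575 estimated counts in TBI and 2201, 1476 and 1144 in zileuton libraries, with an interval of 0.705-fold to 1.42-fold.

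The selectins varied most. Selp had 170, 62.8 and 33 estimated counts in TBI and 468, 15 and 25 in zileuton libraries. One zileuton library was thus above all TBI libraries and the other two were below all of them. The log2 fold change was 0.93 with an interval of -1.71 to 3.57, and without zileuton replicate 2 it was -2.13 (adjusted p = 0.409, edgeR). Sele had 29, 15 and 9 estimated counts in TBI and 104, 11 and 7 in zileuton libraries, so that zileuton replicate 2 again stood above the rest and the other zileuton libraries lay within or just below the TBI range. Its log2 fold change was 1.20 (interval -0.99 to 3.40) with that library and -0.96 (adjusted p = 0.592, edgeR) without it. The direction of both selectins thus turned without zileuton replicate 2. That of Selp also turned with this library kept, as with a replicate block (-0.12) or limma at a pseudocount of 0.1 (-0.31).

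On the leukocyte side, Itgb2 had 1280, 2319 and 2116 estimated counts in TBI and 2154, 1700 and 1235 in zileuton libraries. Itgam had 3649, 5145 and 3575 in TBI and 5223, 4113 and 2882 in zileuton libraries. In both genes the groups overlapped over most of their range, and the intervals were 0.629-fold to 1.29-fold for Itgb2 and 0.759-fold to 1.33-fold for Itgam. Itgal had 99, 177 and 144 estimated counts in TBI and 168, 124 and 95 in zileuton libraries, with an interval of 0.631-fold to 1.39-fold.

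Selplg had 1043, 2342 and 1727 estimated counts in TBI and 2016, 2103 and 1794 in zileuton libraries. TBI replicate 2 was low, and the zileuton libraries lay together inside the TBI range. The interval ran from 0.860-fold to 1.63-fold, and without TBI replicate 2 the log2 fold change was 0.02 in place of 0.25. Itga4 had the narrowest interval, 0.811-fold to 1.16-fold, with 380, 407 and 343 estimated counts in TBI and 392, 386 and 311 in zileuton libraries.

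Zileuton replicate 2 was the highest of its group for all 10 genes and zileuton replicate 6 the lowest for 9 of the 10, the exception being Selp. The summed CPM of the 5 vessel genes was 108 to 136 in TBI and 95.8 to 186 in zileuton libraries, and that of the 5 leukocyte genes 221 to 297 and 220 to 327. The endothelial markers moved less in sum, at 307 to 353 CPM in TBI and 324 to 362 CPM in zileuton libraries. Of these 12 markers 7 were higher in sign and 2 were higher at an unadjusted p under 0.05 (edgeR). Flt1 (54.1 to 56.8 and 66.8 to 71.3 CPM) and Tek (16.6 to 19.0 and 20.5 to 22.5 CPM) were higher without overlap. The microglia and macrophage markers overlapped in sum (2040 to 3360 and 1940 to 2930 CPM), with 8 of 10 lower in sign and 2 of 10 lower at an unadjusted p under 0.05 (edgeR). Of 6 monocyte markers 2, Ly6c2 and Chil3, were lower at that level, both without overlap, the median log2 fold change was -0.71 and the sums overlapped (39.4 to 61.2 and 43.5 to 66.1 CPM). Red cell markers summed to 216 to 342 CPM in TBI and 191 to 206 CPM in zileuton libraries, with 4 of 5 lower at an unadjusted p under 0.05 (edgeR) and 0 called. The part of these cell types was not tested.

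Levels per length were given for 2022 as TPM (the share of transcripts, scaled to a fixed total). In TBI mice Selplg (58.4 TPM), Itgam (51.9 TPM) and Itgb2 (39.4 TPM) led, the range of Selplg covering all of Itgam and overlapping that of Itgb2, and Vcam1 (25.2 TPM), Vwf (23.3 TPM) and Icam1 (13.1 TPM) followed, Icam1 lying below every value of Vwf. Itga4 (2.19 TPM), Selp (1.84 TPM), Itgal (1.73 TPM) and Sele (0.370 TPM) were low. In zileuton mice the means were 72.3 TPM for Selplg, 53.5 TPM for Itgam, 37.9 TPM for Itgb2, 28.2 TPM for Vcam1, 21.2 TPM for Vwf, 15.0 TPM for Icam1, 3.41 TPM for Selp, 2.23 TPM for Itga4, 1.70 TPM for Itgal and 0.890 TPM for Sele. The selectin means rest on zileuton replicate 2, with 9.32, 0.26 and 0.66 TPM of Selp and 2.28, 0.23 and 0.16 TPM of Sele in replicates 2, 3 and 6, so the place of Selp above Itga4 (2.45 TPM in replicate 2) holds in that library alone. The TPM ratio of Itgam to Itgb2 was 1.80, 1.29 and 1.04 in TBI and 1.41, 1.40 and 1.41 in zileuton libraries, and none of the ratios to markers or subunits separated the groups.

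In the related lists edgeR called 0 genes. At an unadjusted p under 0.05, Itga9, an integrin chain for matrix and vessel ligands, was higher (a mean of 12.99 CPM in TBI and 16.4 CPM in zileuton), Cd34 was higher (52.3 and 59.9 CPM) and Rap1b, a GTPase that activates integrins, was lower (78.7 and 65.5 CPM), each with an adjusted p of 0.713 (edgeR). No gene for selectin ligand sugars and no other leukocyte adhesion gene reached that level. Itgax had 111, 408 and 301 estimated counts in TBI and 334, 204 and 215 in zileuton libraries. Glycam1 had 23, 34 and 35 in TBI and 33, 25 and 35 in zileuton libraries, so that the integrin chain and the vessel gene with the largest rises after injury overlapped between these groups as well.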

How the data were processed

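Both batches came as deposited tables. The 2018 tables hold raw counts per gene, as whole numbers, and FPKM, both computed by the authors. The 2022 tables, also deposited by the authors, hold TPM and estimated counts per gene, some of them fractional. The submitters' processing notes name HISAT2, featureCounts, Subread, DESeq2 and the build GRCm39, without versions or roles, and do not say whether counting used the strand. Of the 2022 identifiers, 223 are not Ensembl identifiers. Symbols were found for 34808 and 52081 identifiers. Table columns of 2022 name only the group and a number (2, 3 or 6). Columns held no comparisons of the authors. The two-sided t statistic that the study names for differential expression was not run, because counts were at hand and the groups hold 3 mice.

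Counts were tested with edgeR 4.0.16 in R 4.3.3 (TMM, filterByExpr, glmQLFit, glmQLFTest), with Benjamini-Hochberg adjustment over all genes tested, and a gene was called at an adjusted p under 0.05. Estimated counts were rounded. CPM used TMM-scaled totals. Alternatives were DESeq2 1.42.0 and its size factors, library totals alone, a filter of 10 counts in all libraries or of 1 count in total, limma 3.58.1 on log2(FPKM or TPM + 1) and + 0.1 for means of at least 0.5, limma without that filter, a replicate block, removal of a trend with length, 2018 counts divided by 2, leaving out each library and, for ratios, the geometric mean of the markers. Tests were run within each table only.

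The 10 genes and all lists were chosen with earlier results of these data known. Named genes were the 10, and in each list the 3 called genes with the largest absolute log2 fold change, the 2 with the highest CPM and markers of other cell types. Lists with 5 or fewer tested genes, which the rule names in full, are given by counts, and further genes were named after their values were seen. The pattern GGNNNTTCC and the exon overlaps were added after seeing the data. The fits were tested on simulated data. Positions and overlaps are from GENCODE M21 on GRCm38 and promoters from RefSeq on GRCm38.p6, not the build of the files, so no coordinates were joined to the counts. Protein sequences were not used here, and 1 gene of the leukocyte adhesion list is not reported here and is left out of its counts. Python 3.11.15 with matplotlib 3.10.9 made the plots.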

Additional observations from a re-analysis of the deposited data

How the results depend on the processing

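With 3 mice a group, low genes such as Sele and Selp carry wide intervals, and a missing call does not show that levels were alike. After injury the number of the 10 genes called higher, 7, was 5 under each limma fit. It was 8 with library totals alone, DESeq2, no filter beyond 1 count or a length trend removed. With each library left out it was 6 to 8, and 0 were called lower throughout. Limma with its filter did not test Sele, Selp or Itgal. Sele and Selp were also not tested with 10 counts in every library or with counts divided by 2. The number stayed at 7 in both, because Itgal was called there (adjusted p = 0.0469 and 0.0418, edgeR). All genes called numbered 5479, and 3848 to 4956 with a library left out. Vwf lost its call under limma with a pseudocount of 1 (adjusted p = 0.0731) or 0.1 (0.0563), limma without a filter (0.158), and without sham replicate 1 (0.0649) or sham replicate 2 (0.0552). For zileuton, 0 genes were called, against 28 with DESeq2, 4 with no filter beyond 1 count, and 4 and 5 with limma at pseudocounts of 1 and 0.1, and 0 with limma without a filter; the cause was not tested. None of these were among the 10, and 0 genes were called with any library left out.

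The deviations of same-numbered libraries correlated at -0.0228, -0.0944 and -0.0326 in 2018 and at -0.28, 0.0628 and -0.282 in 2022. Deviations within a group depend on each other, so these values cannot decide whether replicate numbers pair the samples. With a replicate block, 8 of the 10 genes and 4337 genes in all were called in 2018 (4144 in all with a length trend removed as well), and 0 genes in 2022. None of the 10 zileuton differences was called in any setting. Over 17 alternatives the difference was positive in all 17 for Selplg, in 16 for Icam1, 15 for Vcam1, 13 for Selp, 11 for Itgam, 6 for Vwf, 5 for Itga4, 2 for Itgal and 2 for Itgb2, and in 15 of 16 for Sele.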

Other observations

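Zileuton replicate 2 held 15 genes that were at least 2-fold above the next highest of the 6 libraries of 2022, and 2 of the 10 adhesion genes were among its 4 largest. These were Sele (3.42 CPM against 0.994 CPM in the next library) and Selp (15.4 CPM against 5.83 CPM). The largest excess was that of Pagr1a (5.78 against 0.68 CPM). The others included the acute-phase gene Saa3 (2.96 against 1.27 CPM), A2m (414 against 190 CPM), the leukocyte sialomucin Spn (1.61 against 0.732 CPM) and the chemokine Cxcl5 (6.84 against 3.35 CPM). Also among them were Gm14648, Prn, Nup62cl, Tecta, Ltbp2 and Slc44a3. The other libraries of that batch held 4 to 16 such genes. These genes were picked for their values, and no test was made.

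The overlap of Itgam with Gm49368 was followed into the 2022 table, where Gm49368 had 4.06 to 20.6 estimated counts per library against 0 to 2 counts in 2018. The ratio of Itgam to Itgb2 was 1.04 to 1.80 in TPM over the 2022 libraries and 0.340 to 0.433 in FPKM over the 2018 TBI libraries. The tables were made by different counting, so these ratios are set side by side and not compared, and the part of the overlap in them was not tested.

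Itgad, the remaining α chain that pairs with Itgb2, had 17, 17 and 38 counts in sham and 15, 12 and 8 in TBI libraries (adjusted p = 0.141, edgeR), the 1 integrin chain whose TBI libraries all lay below the sham libraries. Ilk, a kinase that links integrins to actin and is widely expressed, was counted only 5 to 13 times per sham and 9 times per TBI library in the 2018 table, too low for the test, and had 2522 to 3208 estimated counts per library in the 2022 table. Its 2018 level is therefore no sign of low expression in this tissue, and what sets the tables apart was not tested.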
